A study of Mus musculus with 54 samples.

Results

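The results describe Th17 cells that had divided 3 or more times in the presence of Arg C, against cells of the same division class grown with the vehicle DMSO. The members are the 12 libraries, of 54 in the series, whose labels give proliferation cycle 4 and either Arg C or DMSO. Each side has 6 libraries, 3 from each of 2 experiments. RNA levels of C57BL/6 mouse cells were measured by RNA sequencing. All groups began as CD4+ CD25- T cells of spleen and lymph node, stated to be about 90% pure, and were loaded with the dye CellTrace Violet, which is diluted at each division. All were driven toward the Th17 fate for 4 days on plate-bound antibody to CD3e, with antibodies to CD28, IFN-γ and IL-4 and with TGF-β1, IL-6 and IL-1β. Drug or vehicle was present for 96 h. On day 4, live CD4+ cells were sorted by dye peak into cycle 2 (1 division), cycle 3 (2 divisions) and cycle 4 (3 or more divisions), so the 3 division classes of a drug come from the same culture conditions and experiment. Arg C is labelled P2A7, at a dose given as 60 mM, a unit that could not be checked. Linezolid, at 100 µM, was the other drug of the series.

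Argyrin C (Arg C), a bacterial cyclic peptide, and linezolid, an antibiotic, are both known to stop protein synthesis on the ribosomes of mitochondria. Argyrins are known to bind the mitochondrial elongation factor encoded by Gfm1. Th17 cells are helper T cells that secrete interleukin 17. Their differentiation is known to need transcription factors such as IRF4 and BATF, and is supported by glycolysis and by the hypoxia factor HIF-1.

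The 3 libraries of a sample are called technical replicates in the labels and are the same tag read on 3 lanes, and were averaged and counted as 1 sample. This left n = 2 samples a side, one from each experiment. The cycle 4 samples held 29.1 to 33.2 M reads (M, 1000000). How many animals gave the cells of an experiment is not in the labels, so p-values measure the spread between these samples. Ribosomal-protein genes took 18.3 and 18.9% of the reads in genes in the DMSO samples and 31.8 and 27.9% in the Arg C samples. As RPKM (reads per kilobase of gene and per 1000000 reads) is a share of the library, a larger share for one class leaves a smaller share for all others. Where a direction depends on this scale it is said, with the value after median-ratio scaling, which sets the typical gene to no change. In these bulk samples fewer cells of a type and less RNA per cell cannot be told apart.

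The cell type in the labels was checked against its markers. Of 7 T helper markers, 6 were present in all 4 samples and Trac was listed at 0 throughout. The summed level of the 7 was 1191 and 1083 RPKM with DMSO and 878 and 991 RPKM with Arg C. The 6 Th17 markers summed to 440 and 265 RPKM with DMSO and to 51.5 and 32.4 RPKM with Arg C. Markers of B cells summed to at most 2.06 RPKM, and erythroid markers, Lyz2 and Adgre1 were at 0. Of the CD8 and NK markers only Cd8b1 exceeded 1 RPKM, at 7.16 and 5.67 RPKM with DMSO and 4.30 and 4.21 RPKM with Arg C. H2-Ab1, a class II antigen gene of antigen-presenting cells, was at 66.5 and 97.1 RPKM with DMSO and 10.7 and 10.6 RPKM with Arg C. Cd74, of the chain that escorts class II molecules, was at 7.93 and 12.7 RPKM against 12.4 and 23.7 RPKM, and Cd68, of a lysosomal protein of macrophages, at 9.33 and 11.0 RPKM against 17.3 and 12.8 RPKM, so these markers did not share a direction. The 9 myeloid markers summed to 84.0 and 121 RPKM with DMSO and 40.5 and 47.2 RPKM with Arg C. Of 4 neutrophil markers only Ly6g was above 0, at 105 and 42.2 RPKM with DMSO and 2.26 and 0.933 RPKM with Arg C. The part of other cells in the results was not tested.

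The comparison asked which RNA levels differ between Arg C and vehicle once the division class is matched. This class has no upper limit, so the number of divisions within it could differ between the groups. That difference was not tested. The 6 largest falls over all genes tested were in Bnip3, Tnfrsf9, Egln3, Itga7, Irf4 and Ly6g, and the 5 largest rises in Hspa1b, Hspa1a and the U3 RNA genes Rnu3b3, Rnu3b2 and Rnu3b1. In limma's test with the experiment as a block (Benjamini-Hochberg adjusted p under 0.05), 8280 of 11004 genes were called, 75.2%. Of these 1289 (11.7%) were higher with Arg C and 6991 (63.5%) lower. Changes of at least 2-fold numbered 98 higher (0.891%) and 2289 lower (20.8%). The median log2 fold change of all genes was -0.47. With median-ratio scaling that median was -0.00 and the split was 3797 higher and 3884 lower. All 1289 higher calls were also higher on that scale, and 3884 of the lower calls were also lower. Another 480 changed from lower to higher and 2627 were no longer called. Of the called genes 8277 had the same sign in both experiments. Both Arg C samples lay above both DMSO samples in 1638 genes and below both in 7556, and the groups overlapped in 1810. With 2 samples a side, groups that do not overlap were thus the usual state. Fold changes below are Arg C over DMSO on the log2(RPKM + 1) scale, which understates changes of genes at a few RPKM, and errors are standard errors of the fit.

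**Figure D1:**
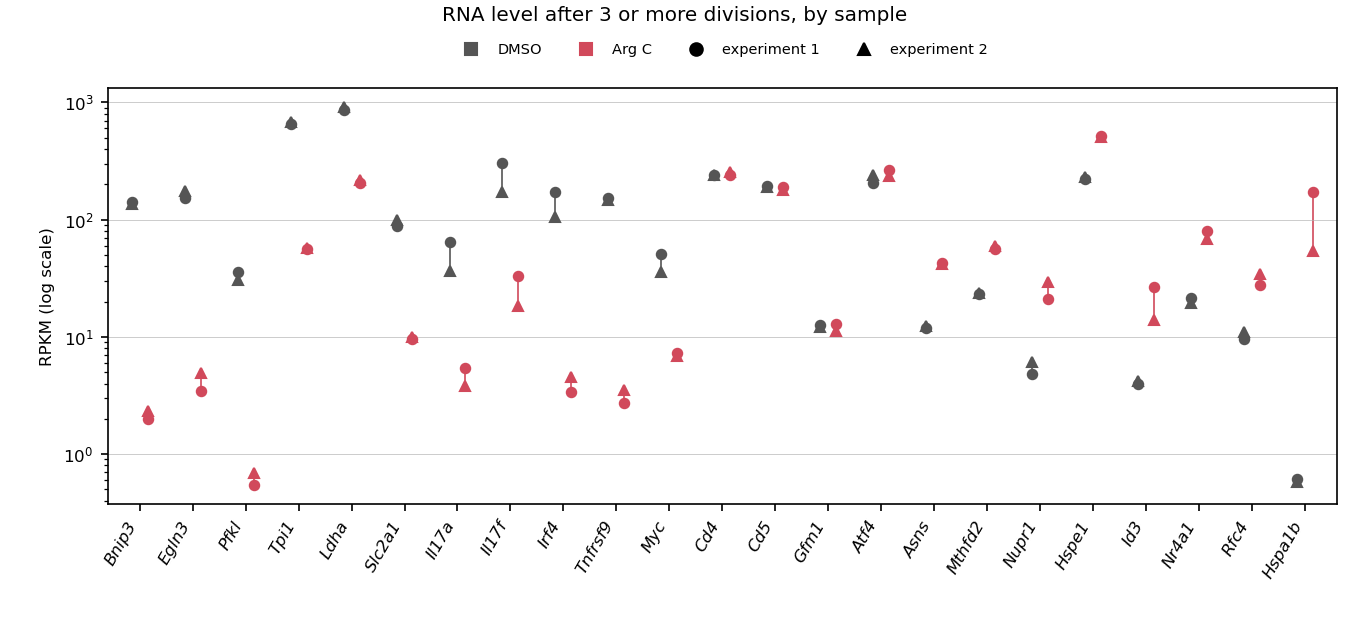
RNA levels (RPKM, log scale) of 23 genes in the 4 samples of cells with 3 or more divisions; grey is DMSO, red is Arg C, circles are experiment 1 and triangles experiment 2, and a line joins the 2 samples of a group. Bnip3 lies between 135 and 141 RPKM with DMSO and between 2.00 and 2.33 RPKM with Arg C, while Cd4 lies between 239 and 256 RPKM in all 4 samples.

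Glycolysis was lower along its whole length. Of 25 genes of glucose uptake, glycolysis and lactate export, 23 fell, 2 rose and none was left uncalled, with a median log2 fold change of -2.06 against -0.47 for all genes. Median-ratio scaling gave 20 falls and the same number of rises. The glucose transporter gene Slc2a1 was at 88.4 and 98.4 RPKM in the DMSO samples and at 9.60 and 9.88 RPKM in the Arg C samples, and fell by 3.13 ± 0.11. Pfkl, which encodes the liver subunit of phosphofructokinase, was at 36.0 and 30.4 RPKM against 0.544 and 0.693 RPKM and fell by 4.40 ± 0.18. Tpi1, the gene of triose phosphate isomerase, was at 650 and 678 RPKM against 56.3 and 56.9 RPKM and fell by 3.53 ± 0.08. In all 3 genes the pair of Arg C samples lay below the pair of DMSO samples without overlap.

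Further down the pathway, Ldha, which encodes the lactate dehydrogenase subunit that favours lactate formation, went from 868 and 912 RPKM to 207 and 218 RPKM and fell by 2.06 ± 0.09. The lactate exporter gene Slc16a3 was at 91.8 and 87.3 RPKM against 3.54 and 4.43 RPKM and fell by 4.19 ± 0.18. The groups did not overlap in either gene, and the falls differed in depth along the pathway. The smallest falls were in Slc16a1 (-0.71 ± 0.10), Eno2 (-0.71 ± 0.16) and Gpi1 (-0.89 ± 0.12), and these 3 were not called with median-ratio scaling. The isozyme genes that rose were Ldhb, of the other lactate dehydrogenase subunit, and Eno3, of the muscle enolase. Ldhb was at 17.6 and 15.9 RPKM with DMSO and 20.9 and 22.8 RPKM with Arg C, a rise of 0.36 ± 0.08. Eno3 was at 1.35 and 1.24 RPKM against 2.65 and 2.15 RPKM, a rise of 0.56 ± 0.12. No glycolysis gene overlapped between the groups, whereas 1810 of all 11004 genes did.

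The hypoxia genes held the largest fall. HIF-1 is a transcription factor whose alpha subunit, the product of Hif1a, is marked for destruction by the oxygen-sensing hydroxylases encoded by Egln1, Egln2 and Egln3. Of 26 tested HIF factors, sensors and targets, 24 fell and none rose, with a median of -2.01. With median-ratio scaling 22 fell and 3, Arnt, Epas1 and Vhl, were higher. The fall of Vhl, of the ligase that marks HIF-1, was small (-0.25 ± 0.09) and not called without Arg C experiment 1 (-0.17) or DMSO experiment 2 (-0.21). Bnip3, a mitophagy receptor and HIF-1 target, was at 141 and 135 RPKM with DMSO and at 2.00 and 2.33 RPKM with Arg C. Its fall of 5.46 ± 0.18 had an adjusted p of 4.37e-10 in limma. Egln3 went from 153 and 177 RPKM to 3.48 and 4.93 RPKM and fell by 5.00 ± 0.13. P4ha2, a collagen prolyl hydroxylase gene, went from 26.6 and 27.8 RPKM to 0.985 and 0.530 RPKM and fell by 4.02 ± 0.13. All 3 genes were separated between the groups, and Bnip3 had the largest fall of all 11004 genes.

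Among the regulators, Hif1a was at 186 and 143 RPKM with DMSO and at 45.5 and 59.9 RPKM with Arg C, and fell by 1.62 ± 0.20. Arnt, the partner subunit, was at 18.8 and 20.0 RPKM against 19.7 and 23.0 RPKM (0.13 ± 0.08, adjusted p = 0.151 in limma). Its groups overlapped on the deposited scale, and it was higher with median-ratio scaling (0.75). Epas1, of the alternative alpha subunit, was at 1.13 and 1.19 RPKM against 1.67 and 0.947 RPKM (0.08 ± 0.15). Car12 did not reach the filter and was not tested.

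Promoter windows show where the letters bound by HIF-1 lie in the pair of hypoxia genes that fell furthest. The windows are the 250 bases upstream of the RefSeq start (GRCm38.p6), both genes on the minus strand, printed 5′ to 3′ along the gene. Bnip3 is at chr7:138909507-138909756 and Egln3 at chr12:54203875-54204124. Capitals mark the core of the hypoxia response element, ACGTG or GCGTG on either strand, where overlapping matches run together.
Bnip3: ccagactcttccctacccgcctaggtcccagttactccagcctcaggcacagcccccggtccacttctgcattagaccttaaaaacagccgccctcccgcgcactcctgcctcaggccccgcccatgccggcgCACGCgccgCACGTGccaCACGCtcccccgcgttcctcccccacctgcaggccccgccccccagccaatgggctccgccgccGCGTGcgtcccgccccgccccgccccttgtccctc
Egln3: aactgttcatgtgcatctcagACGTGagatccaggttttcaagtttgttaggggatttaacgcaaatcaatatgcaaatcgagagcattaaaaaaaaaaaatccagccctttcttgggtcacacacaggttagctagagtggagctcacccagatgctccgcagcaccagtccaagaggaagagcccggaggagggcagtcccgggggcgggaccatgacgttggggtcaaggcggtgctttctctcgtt
Bnip3 held 5 matches, the nearest starting 35 bases before the gene, and Egln3 held 1, starting 229 bases before it. The core is short and common. It occurred in 57.5% of 10681 windows of tested genes, in 29 of 37 windows (78.4%) of the glycolysis list and in 23 of 29 windows (79.3%) of the HIF list. These shares describe letters and were not tested, and a match is not a bound site.

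**Figure D2:**
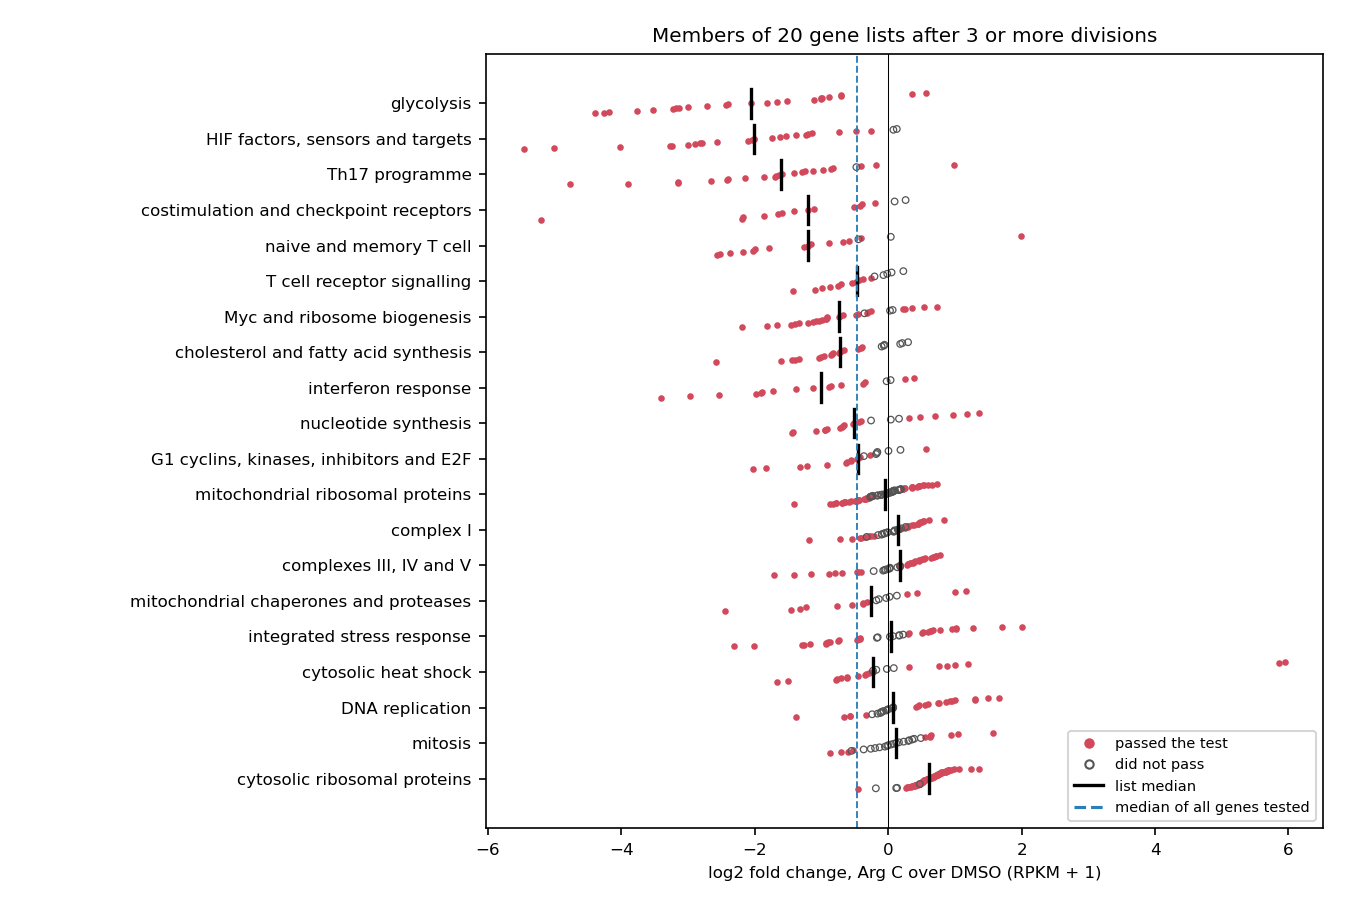
Each point is one gene of the list named at the left, at its log2 fold change of Arg C over DMSO (log2 of RPKM + 1) after 3 or more divisions; filled points passed limma's test, open points did not, black bars are list medians and the dashed line is the median of all genes, -0.47. Glycolysis (median -2.06) and HIF genes (-2.01) lie furthest left and cytosolic ribosomal proteins (0.61) furthest right.

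The Th17 programme fell at the level of cytokines, of transcription factors and of receptors. Of 24 tested genes 22 fell, Il9 rose and Tgfbr1 was not called, with a median of -1.61. Median-ratio scaling left 18 lower and 1 higher. Il17a, which encodes interleukin 17A, was at 64.5 and 36.4 RPKM in DMSO experiments 1 and 2 and at 5.45 and 3.81 RPKM with Arg C. It fell by 3.15 ± 0.20. Il17f went from 304 and 171 RPKM to 33.1 and 18.2 RPKM and fell by 3.16 ± 0.17. In both genes experiment 1 was the higher one in either group, and the groups did not overlap. Il21, of a cytokine that sustains these cells, fell by 2.65 ± 0.13, and Tgfb3, of a TGF-β cytokine, by 3.90 ± 0.12.

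Irf4, a transcription factor induced by T cell receptor signals, had the deepest fall of the list. It was at 172 and 104 RPKM with DMSO and at 3.37 and 4.54 RPKM with Arg C, a fall of 4.78 ± 0.32. Batf, of an AP-1 family factor, was at 92.5 and 89.1 RPKM against 34.0 and 33.2 RPKM and fell by 1.41 ± 0.08. The groups were apart in both genes. Among receptors, Il6ra and Il6st, whose products together receive interleukin 6, fell by 2.42 ± 0.26 and 2.14 ± 0.31. Tgfbr1, of a TGF-β receptor, overlapped: it was at 7.96 and 7.44 RPKM with DMSO and at 2.94 and 8.93 RPKM with Arg C. Without the Arg C sample of experiment 2 its value was -0.95 and was called in limma (adjusted p = 0.0261). Il9, the cytokine gene of a related helper lineage, was at 2.30 and 1.22 RPKM with DMSO and 4.98 and 3.76 RPKM with Arg C, a rise of 0.98 ± 0.21.

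On the deposited scale, genes of other helper lineages were called lower about as often as all genes, of which 63.5% were lower. Of 11 tested Th1 and cytotoxic genes 7 fell and none rose, and of 11 regulatory and Th2 genes 8 fell and none rose. Their medians were -0.77 and -1.17, against -0.47 for all genes. With median-ratio scaling 7 genes of each list were lower, against 3884 of all 11004 genes. Higher on that scale were 1 and 3, including Foxp3. Foxp3, which specifies regulatory T cells, was at 0.323 and 0.463 RPKM with DMSO and 0.389 and 0.604 RPKM with Arg C (0.10 ± 0.13, not called), so the groups overlapped at a low level. Il2ra, of the high-affinity interleukin 2 receptor, went from 216 and 180 RPKM to 77.4 and 56.8 RPKM and fell by 1.56 ± 0.21. Il10, of an anti-inflammatory cytokine and counted above in the Th17 list, fell by 2.41 ± 0.14.

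Genes of naive and memory T cells did not rise as a group. Of 17 tested, 14 fell and 1 rose, against 63.5% lower and 11.7% higher over all genes. Their median was -1.20, against -0.47 for all genes. With median-ratio scaling 11 were lower and 2 higher, with a median of -0.56. Ccr7, a lymph node homing receptor, was at 323 and 301 RPKM with DMSO and at 34.9 and 76.6 RPKM with Arg C, and fell by 2.57 ± 0.29. Klf2, a factor of resting T cells, went from 46.4 and 52.9 RPKM to 6.95 and 11.1 RPKM and fell by 2.37 ± 0.14. Both genes were lower in both Arg C samples, and in both the sample of experiment 1 was the lowest. Tcf7, of a factor of memory and stem-like T cells, was at 303 and 247 RPKM against 276 and 287 RPKM (0.04 ± 0.09, not called) and was higher with median-ratio scaling (0.69) and without the DMSO sample of experiment 1 (0.21). Id3, an inhibitor of E-protein factors, went the other way, from 3.96 and 4.21 RPKM to 26.7 and 13.8 RPKM. It rose by 1.99 ± 0.23 with no overlap.

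With median-ratio scaling 9 of 15 costimulation and checkpoint receptors were lower and 4 higher. Against 63.5% lower over all genes, 13 of the 15 fell and none rose on the deposited scale (median -1.20). That count was 8 without the DMSO sample of experiment 1. Tnfrsf9, of the costimulatory receptor 4-1BB, went from 153 and 147 RPKM to 2.71 and 3.56 RPKM and fell by 5.20 ± 0.29, the second largest fall. The T cell receptor apparatus differed less. Of 16 tested genes 11 fell, with a median of -0.46, near that of all genes, and with median-ratio scaling 3 fell and 7 were higher. Cd4 was at 239 and 241 RPKM with DMSO and at 242 and 256 RPKM with Arg C (0.05 ± 0.07, not called). Cd5, an inhibitory receptor, was at 195 and 190 RPKM against 188 and 179 RPKM (-0.07 ± 0.06, not called). In Cd4 both Arg C samples lay just above both DMSO samples, and in Cd5 just below. With median-ratio scaling both were higher, at 0.70 and 0.58, as was Cd3d, at 0.45 against -0.20 ± 0.14 as deposited, where it was not called but was without the DMSO sample of experiment 2 (-0.40).

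Early activation genes split, and were called lower about as often as all genes. Of 19 tested immediate early genes 12 fell, against 63.5% lower over all genes. The 3 genes of the NR4A family of orphan nuclear receptors rose, against 11.7% higher over all genes. With median-ratio scaling 9 of the 19 were lower and 5 higher. Nr4a1 was at 21.6 and 19.6 RPKM with DMSO and at 80.2 and 68.5 RPKM with Arg C, a rise of 1.80 ± 0.13. Nr4a2 went from 1.17 and 1.53 RPKM to 4.82 and 5.83 RPKM, a rise of 1.43 ± 0.14. The rise of Nr4a3 (0.71 ± 0.30) rested on experiment 2, where Arg C gave 17.3 RPKM, against 6.51 RPKM in experiment 1 and 6.36 and 6.03 RPKM with DMSO. Without that sample it was 0.26 and not called, and without the DMSO sample of experiment 2 it was 0.39 and not called. Myc, the growth factor-induced transcription factor gene, fell from 51.5 and 36.1 RPKM to 7.32 and 6.87 RPKM, by 2.45 ± 0.22. Junb and Jund, of AP-1 subunits, fell by 2.29 ± 0.10 and 2.50 ± 0.21, while Jun was at 13.3 and 16.7 RPKM against 29.96 and 11.2 RPKM and was not called.

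The largest rises were in 2 cytosolic heat shock genes. Hspa1b and Hspa1a encode the inducible HSP70 chaperone and are near-identical, so their reads may be shared between them. Hspa1b was at 0.611 and 0.573 RPKM with DMSO and at 174 and 54.3 RPKM with Arg C, a rise of 5.95 ± 0.43. Hspa1a was at 0.688 and 0.702 RPKM against 186 and 50.9 RPKM, a rise of 5.86 ± 0.51. The Arg C samples of the 2 experiments differed by more than 3-fold, and both lay far above DMSO. Without the experiment 1 sample the rise of Hspa1a was 5.23, and without the experiment 2 sample 6.49.

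The heat shock list as a whole split on the deposited scale. Of 24 tested genes 7 rose and 13 fell, against 11.7% higher and 63.5% lower over all genes. The list median was -0.23, against -0.47 for all genes, and the lower count was smaller without the DMSO sample of experiment 1. Hsp90ab1, of a constitutive HSP90, went from 1034 and 1099 RPKM to 2005 and 1634 RPKM and rose by 0.76 ± 0.12. Hspb1, of a small heat shock protein, was at 0.397 and 0.420 RPKM against 4.22 and 1.00 RPKM (1.20 ± 0.34), a call lost without the Arg C sample (0.76) or the DMSO sample (0.85) of experiment 1. Dnajb1 and Hsp90aa1, a co-chaperone and the inducible HSP90 gene, fell by 0.61 ± 0.09 and 0.79 ± 0.12. Median-ratio scaling made 15 of the list higher and 3 lower, and neither of the latter pair was called.

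The integrated stress response moved in both directions. In this response the translation factor eIF2α is phosphorylated and the transcription factor ATF4 raises genes of amino acid supply. Of 38 tested genes 15 rose and 16 fell, with a median of 0.05, against 22 and 12 with median-ratio scaling. Asns, of asparagine synthetase, was at 11.9 and 12.4 RPKM with DMSO and at 42.6 and 41.5 RPKM with Arg C, a rise of 1.71 ± 0.09. Mthfd2, of mitochondrial one-carbon metabolism, went from 23.3 and 23.6 RPKM to 56.5 and 59.1 RPKM and rose by 1.26 ± 0.06. Nupr1, a small stress-induced nuclear protein gene, went from 4.81 and 6.09 RPKM to 21.0 and 29.4 RPKM and rose by 2.01 ± 0.16. All 3 were separated between the groups in both experiments.

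The genes of serine synthesis Phgdh and Psat1 rose as well, by 0.96 ± 0.09 and 0.78 ± 0.09, and Ddit3, which encodes the stress factor CHOP, by 0.67 ± 0.10. Atf4 itself was at 208 and 241 RPKM with DMSO and at 267 and 236 RPKM with Arg C (0.17 ± 0.11, not called), with overlapping groups, and was higher with median-ratio scaling (0.82) and without the DMSO sample of experiment 2 (0.34). Other members fell: Vldlr, a lipoprotein receptor gene, by 2.32 ± 0.12, Stc2, a secreted glycoprotein gene, by 2.00 ± 0.11, and Sesn2, a stress-induced regulator of growth, by 1.17 ± 0.22. Trib3, an ATF4 target that feeds back on it, fell by 0.92 ± 0.22. The list thus held both rises and falls of more than 2-fold.

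For 1 gene of each stress list that rose, Hspa1b and Asns, the windows were read in the same way, again both on the minus strand. Hspa1b is at chr17:34959239-34959488 and Asns at chr6:7693210-7693459. Capitals mark, in Hspa1b, a heat shock element pair (GAANNTTC or TTCNNGAA) and, in Asns, the core of the amino acid response element (TGATGNAA), searched on both strands.
Hspa1b: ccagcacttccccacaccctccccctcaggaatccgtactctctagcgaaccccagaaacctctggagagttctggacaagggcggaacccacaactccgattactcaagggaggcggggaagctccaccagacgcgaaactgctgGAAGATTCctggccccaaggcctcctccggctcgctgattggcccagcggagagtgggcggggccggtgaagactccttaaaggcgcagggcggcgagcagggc
Asns: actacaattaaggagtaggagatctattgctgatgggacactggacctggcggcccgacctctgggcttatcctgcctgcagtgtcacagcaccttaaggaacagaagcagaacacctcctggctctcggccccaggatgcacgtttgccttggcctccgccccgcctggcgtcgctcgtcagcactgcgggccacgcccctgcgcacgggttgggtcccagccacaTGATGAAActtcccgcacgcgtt
The match of Hspa1b starts 104 bases before the gene and that of Asns 23 bases before it. The heat shock pair occurred in 10.1% of windows of tested genes and in 10 of 27 windows (37.0%) of the heat shock list. The amino acid response core occurred in 1.93% and in 7 of 40 windows (17.5%) of the integrated stress response list. No test was made of these shares.

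Nuclear genes of the mitochondrion, the organelle whose ribosomes Arg C is known to inhibit, gave no single direction. Gfm1, of the elongation factor bound by argyrins, was at 12.6 and 12.2 RPKM with DMSO and at 12.8 and 11.3 RPKM with Arg C. It was at -0.04 ± 0.09 as deposited, not called, and at 0.56 with median-ratio scaling. Among the 77 genes of mitochondrial ribosomal proteins, 18 rose and 29 fell as deposited, and 53 were higher and 2 lower after median-ratio scaling. Complex I genes stood at 18 higher and 9 lower of 43, and at 37 and 1 after that scaling. The 9 were 4 without Arg C experiment 1 or DMSO experiment 1. Of 43 genes of complexes III, IV and V 23 rose and 9 fell (35 and 5 after scaling). Cox8a, of a small subunit of complex IV, went from 364 and 396 RPKM to 667 and 632 RPKM and rose by 0.77 ± 0.09. Sco2 and Cox10, of assembly factors of complex IV, moved the other way on both scales and fell by 1.71 ± 0.13 and 1.41 ± 0.15. The other assembly factor genes of complex IV are not described here.

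Chaperones and proteases of the matrix split too. Hspe1, of the small chaperonin subunit, was at 223 and 233 RPKM with DMSO and at 517 and 508 RPKM with Arg C, and rose by 1.17 ± 0.08. Its partner Hspd1 rose by 0.99 ± 0.07. Afg3l2, of a protease of the inner membrane, went from 50.0 and 59.7 RPKM to 9.52 and 8.99 RPKM and fell by 2.44 ± 0.10. Lonp1, of the matrix protease, fell by 1.32 ± 0.13, and Peo1, of the helicase that unwinds mitochondrial DNA, by 2.08 ± 0.15. These directions were the same with median-ratio scaling. Protein genes of the mitochondrial genome are listed at 0. Of its ribosomal RNA genes, Rnr1 was at 881 and 990 RPKM against 1020 and 623 RPKM (-0.23 ± 0.22, not called). Rnr2 was at 673 and 608 RPKM against 451 and 223 RPKM (-1.01 ± 0.35), a call lost without the Arg C sample of experiment 2 (-0.48), without either DMSO sample (-0.97 and -1.05) and with median-ratio scaling (-0.36).

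Genes of mitosis showed no common direction in the cells of 3 or more divisions. Of 29 genes of mitosis 7 rose, 4 fell and 18 were not called, with a median of 0.12. Between the groups 24 of the 29 overlapped, against 1810 of all 11004 genes. Mki67, the proliferation marker, was at 11.7 and 17.4 RPKM with DMSO and at 13.1 and 27.4 RPKM with Arg C (0.39 ± 0.27, not called). Top2a, of the topoisomerase that untangles chromosomes, went from 70.4 and 106 RPKM to 141 and 232 RPKM and rose by 1.05 ± 0.21. Ect2, a factor of cytokinesis, was at 9.27 and 11.3 RPKM against 2.89 and 8.60 RPKM and fell by 0.88 ± 0.27. In each of these genes Arg C experiment 1 was the lower Arg C sample. Median-ratio scaling made 20 of the 29 higher and 0 lower, and Ect2 was not called (-0.32), as also without Arg C experiment 1 (-0.51), without DMSO experiment 1 (-0.66) or with the experiment term left out. The lower calls numbered 0 without Arg C experiment 1, 1 without DMSO experiment 1, 2 without DMSO experiment 2 and 0 with the experiment term left out. The higher calls numbered 2 without Arg C experiment 2, 4 without DMSO experiment 1 and 3 with the experiment term left out.

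After 1 and 2 divisions the same 29 genes were all higher with Arg C in both experiments. Their median log2 difference from DMSO was 1.98 after 1 division, 1.48 after 2 and 0.12 after 3 or more. In the DMSO samples the median level of the list was 7.79 and 14.1 RPKM in experiments 1 and 2 after 1 division, and 12.6 and 18.1 RPKM after 3 or more. In the Arg C samples it was 35.8 and 38.3 RPKM after 1 division, and 11.6 and 24.6 RPKM after 3 or more. The level with Arg C was thus lower at the later class while that with DMSO was higher. The later class has no upper limit of divisions, unlike the earlier ones. Whether division number within it differed between Arg C and DMSO was not tested. For Mki67 the 2 Arg C samples were at 44.6 and 43.4 RPKM after 1 division and 37.8 and 44.5 RPKM after 2, against 5.91 and 8.55 RPKM and 7.67 and 13.1 RPKM with DMSO.

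The difference between division classes was tested as an interaction in limma. Of 11004 genes, 468 (4.25%) had a higher Arg C effect after 3 or more divisions than after 1 and 403 (3.66%) a lower one, 871 in all (7.92%). The difference was at least 2-fold in 22 of the higher (0.2%) and 177 of the lower (1.61%). All 29 mitosis genes were among the lower, with a median of -1.82, a range of -2.26 to -1.19 and adjusted p of 0.00285 to 0.0359 in limma. The median was -2.37 in experiment 1 and -1.27 in experiment 2. Without Arg C experiment 1 the list held 20 such genes, and with only the groups compared 28. With the experiment term left out 0 of 29 were called, as the total dropped to 84 higher and 16 lower. Without Arg C experiment 1 the totals were 154 and 132, without DMSO experiment 1 236 and 212, and without Arg C experiment 2 the higher count was 245. With only the groups compared the totals were 65 and 176.

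**Figure D3:**
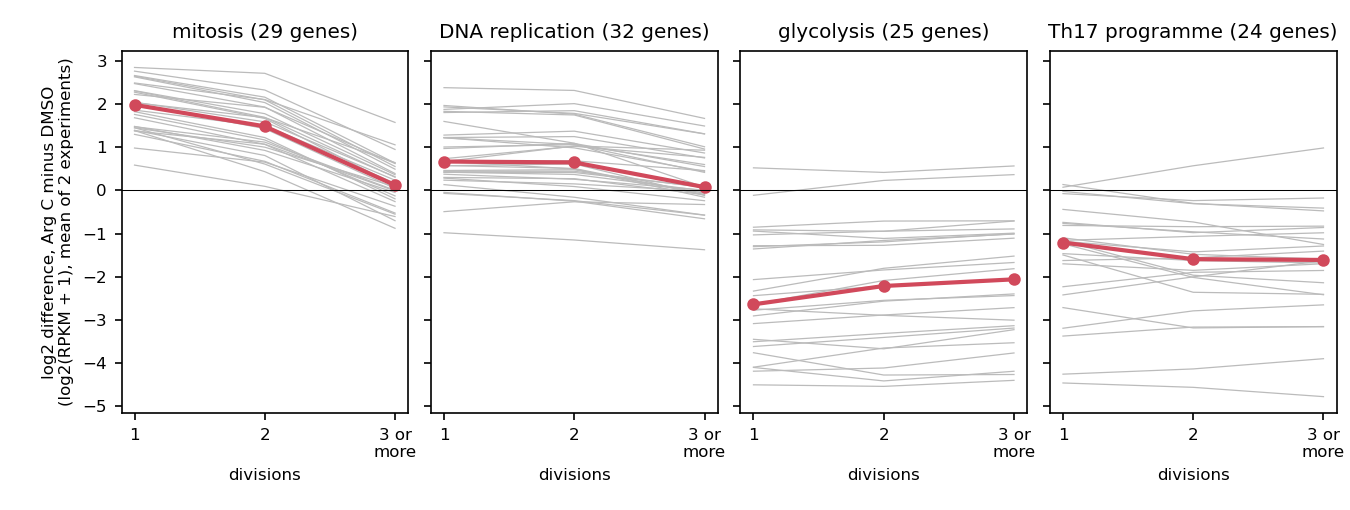
Log2 difference of Arg C from DMSO (log2 of RPKM + 1, mean of 2 experiments) against number of divisions for 4 gene lists; grey lines are genes and red points are list medians. Mitosis genes pass from a median of 1.98 to 0.12, whereas the glycolysis median is -2.64 after 1 division and -2.06 after 3 or more, and the Th17 median -1.21 and -1.61.

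Ect2, Troap, Cdc20 and Kif2c, which act in cytokinesis, on the spindle or in the exit from mitosis, had among the lowest interaction values, from -2.26 ± 0.37 to -2.14 ± 0.31. Cdc20 was at 114 and 116 RPKM with Arg C after 1 division and at 25.6 and 48.8 RPKM after 3 or more, and with DMSO at 17.0 and 30.9 RPKM and then 26.7 and 39.5 RPKM. The Arg C and DMSO samples were apart at the first class and overlapped at the last. Of 32 DNA replication genes 8 had a lower effect after 3 or more divisions than after 1, a count of 1 without Arg C experiment 1, without DMSO experiment 1 or with only the groups compared, 5 without DMSO experiment 2 and 0 with the experiment term left out. Rfc4, of a clamp loader subunit, was at 9.61 and 11.0 RPKM with DMSO and at 27.5 and 34.2 RPKM with Arg C after 3 or more divisions (1.49 ± 0.10). Lig1, of the ligase that joins replicated fragments, rose by 1.67 ± 0.16, and Mcm5, of the replicative helicase, by 0.96 ± 0.16. In all, 15 replication genes rose and 5 fell after 3 or more divisions, and 25 and 1 with median-ratio scaling. The 5 were 2 without Arg C experiment 1 and 3 without DMSO experiment 1.

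The genes whose Arg C effect was higher after 3 or more divisions than after 1 were led by Mt2 and Mt1 among the called genes, which encode metallothioneins, small metal-binding proteins. Mt2 was at 146 and 90.3 RPKM with DMSO and 16.7 and 14.7 RPKM with Arg C after 1 division, and at 121 and 165 RPKM against 135 and 77.1 RPKM after 3 or more. Its interaction was 2.34 ± 0.38. The groups were apart at the first class and overlapped at the last. For Mt1 the value was 2.17 ± 0.34. Next were Srm, of spermidine synthase, with 1.27 ± 0.15, Atp5g1, of an ATP synthase subunit, with 1.22 ± 0.17, and Nme1, of a nucleoside diphosphate kinase, with 1.16 ± 0.14. Nme1 rose after 3 or more divisions, from 27.8 and 23.98 RPKM to 52.0 and 51.1 RPKM, whereas after 1 division it was at 20.0 and 20.2 RPKM with DMSO and 17.96 and 17.1 RPKM with Arg C.

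Between 3 or more divisions and 2, limma called 0 genes (0.0%) and limma-voom on recovered reads also 0, with 679 genes at an unadjusted p under 0.05. All 29 mitosis genes were among these 679 and lower in both experiments, with a median of -1.30 and adjusted p from 0.222 to 0.745 in limma. With the 54 libraries as own replicates, which treats technical replicates as independent, 1293 genes and all 29 of the list were called.

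Mki67 stands for the mitosis list in its promoter. The window at chr7:135716380-135716629 (GRCm38.p6, minus strand) is printed with the cell cycle homology region, TTTGAA on either strand, in capitals.
Mki67: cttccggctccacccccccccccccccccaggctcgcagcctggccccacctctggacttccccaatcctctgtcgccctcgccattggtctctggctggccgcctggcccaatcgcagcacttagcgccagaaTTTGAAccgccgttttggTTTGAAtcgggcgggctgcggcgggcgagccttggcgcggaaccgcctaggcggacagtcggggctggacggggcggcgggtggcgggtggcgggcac
It held 2 matches, starting 116 and 98 bases before the gene. The motif occurred in 10.3% of windows of tested genes and in 12 of 25 windows (48.0%) of the mitosis list, shares that were not tested.

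Regulators of entry into the cell cycle were near the share of all genes. Of 20 G1 genes 13 fell and 1 rose, against 63.5% lower over all genes, with a median of -0.46 against -0.47, a lower count of 8 without Arg C or DMSO experiment 1, and of 5 lower and 5 higher with median-ratio scaling. Ccnd2 and Cdk6, of a cyclin D and its kinase, fell by 2.03 ± 0.27 and 1.83 ± 0.15, and Cdkn1a, of the inhibitor p21, by 1.32 ± 0.18, and these 3 were lower on both scales. Ccnd3, of another cyclin D, went from 70.1 and 91.0 RPKM to 112 and 125 RPKM and rose by 0.56 ± 0.09.

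Most genes of ribosomal proteins rose, while most genes of Myc partners and ribosome assembly did not. Of 84 cytosolic ribosomal-protein genes 79 rose, 1 fell and 4 were not called, with a median of 0.61. With median-ratio scaling 82 were higher. Rpl22l1, of a paralogue of a large-subunit protein, went from 260 and 294 RPKM to 754 and 666 RPKM and rose by 1.36 ± 0.10. Of 31 genes of Myc partners and ribosome assembly 23 fell and 5 rose, against 63.5% lower and 11.7% higher over all genes. Their median was -0.74, against -0.47 for all genes, and the higher count was smaller without Arg C experiment 2. With median-ratio scaling 16 of the 31 were lower and 9 higher. Gnl3 and Bop1, of nucleolar assembly factors, fell by 1.67 ± 0.17 and 1.82 ± 0.22. Npm1, the abundant nucleolar chaperone, rose from 1692 and 1768 RPKM to 3118 and 2667 RPKM, by 0.74 ± 0.10. The directions of Gnl3, Bop1 and Npm1 were the same with median-ratio scaling.

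Some small non-coding RNAs were higher with Arg C. Of 38 such genes 25 were below the filter and not tested, and of the 13 tested 6 rose (10 with only the groups compared), 7 were not called and none fell. U3 RNA guides the first cuts of ribosomal precursor RNA, and its copies are near-identical, so reads could be split among them. Rnu3b1 was at 0.557 and 0.478 RPKM with DMSO and at 18.3 and 7.33 RPKM with Arg C, a rise of 3.06 ± 0.39. Rn7sk, an RNA that restrains transcription elongation, was at 2.35 and 2.90 RPKM against 27.7 and 9.81 RPKM, a rise of 2.29 ± 0.34. In both, as in Hspa1b and Id3, Arg C experiment 1 was the highest sample and the groups did not overlap. The part of library preparation in the level of such short transcripts was not tested.

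Counts of biosynthetic and survival genes are set against 63.5% lower and 11.7% higher over all genes. Of 24 genes of cholesterol and fatty acid synthesis 18 fell and none rose, but with median-ratio scaling 7 fell and 7 were higher. Elovl6, of a fatty acid elongase, went from 14.6 and 12.6 RPKM to 1.15 and 1.76 RPKM and fell by 2.58 ± 0.22. It was lower on either scale. Of 23 nucleotide synthesis genes 14 fell, near the share of all genes, and 6 rose (7 and 10 with median-ratio scaling). Their median was -0.52, against -0.47 for all genes. Impdh2, of the enzyme that commits purines to guanine nucleotides, went from 98.2 and 113 RPKM to 287 and 259 RPKM and rose by 1.37 ± 0.11, while its isozyme gene Impdh1 fell by 1.44 ± 0.09. Tk1, of a thymidine kinase, rose by 1.18 ± 0.11.

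Of 18 tested interferon response genes 14 fell and 2 rose, against 63.5% lower and 11.7% higher over all genes. With median-ratio scaling 12 were lower and 3 higher. Gbp2, of a guanylate-binding protein, went from 203 and 142 RPKM to 18.4 and 23.2 RPKM and fell by 2.98 ± 0.24. Of 12 BCL2 family genes 10 fell and 1 rose (7 lower and 3 higher with median-ratio scaling). The falls were on both sides of the family: Bcl2l11, which encodes the death-promoting BIM, fell by 1.58 ± 0.23, and the protective Bcl2 and Mcl1 by 1.18 ± 0.26 and 1.04 ± 0.16. Bcl2l1, of the protective BCL-XL, was at 6.42 and 6.60 RPKM with DMSO and at 7.87 and 8.25 RPKM with Arg C and rose by 0.27 ± 0.10, a call lost without Arg C experiment 2 (0.20) or DMSO experiment 1 (0.22).

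Arg C was compared with linezolid at the same division class to ask where 2 inhibitors of mitochondrial translation differ. The compounds belong to unrelated classes, and the labelled doses differ, so the test compares these treatments and not potency. Arg C was higher in 222 of 11004 genes (2.02%) and lower in 3810 (34.6%), 4032 in all (36.6%), with a median of -0.21. At least 2-fold differences numbered 10 higher (0.0909%) and 211 lower (1.92%). Median-ratio scaling turned this into 1710 higher and 1513 lower, with a median of 0.02. Without Arg C experiment 1 the counts were 58 and 1208, and without linezolid experiment 2 71 and 1258. Without Arg C experiment 2 the higher count was 137 and without linezolid experiment 1 368. With the experiment term left out 88 were higher and 1895 lower. Bnip3 was at 4.24 and 6.37 RPKM with linezolid, against 2.00 and 2.33 RPKM with Arg C (-0.98 ± 0.18).

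Hspa1b, Rnu3b1, Jun and Id3 were higher with Arg C. Their lists were not so as a whole: of 24 cytosolic heat shock genes 5 were higher and 5 lower than with linezolid, and 2 higher without Arg C experiment 1 or without linezolid experiment 2. Of the 13 small RNAs tested 4 were higher (10 with only the groups compared, 6 without Arg C experiment 2) and none lower. Hspa1b was at 4.44 and 3.70 RPKM with linezolid, so its level with Arg C was higher by 4.28 ± 0.43. Rnu3b1 was at 0.605 and 0.509 RPKM with linezolid, near the DMSO samples, and Arg C was higher by 3.03 ± 0.39. Jun was at 5.75 and 4.58 RPKM with linezolid, below the 13.3 and 16.7 RPKM of DMSO, and at 29.96 and 11.2 RPKM with Arg C. The difference of 1.67 ± 0.37 was 1.06 and not called without Arg C experiment 1. Id3 was at 8.93 and 7.72 RPKM with linezolid and higher with Arg C by 1.12 ± 0.23, a call also lost without that sample (0.74).

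**Figure D4:**
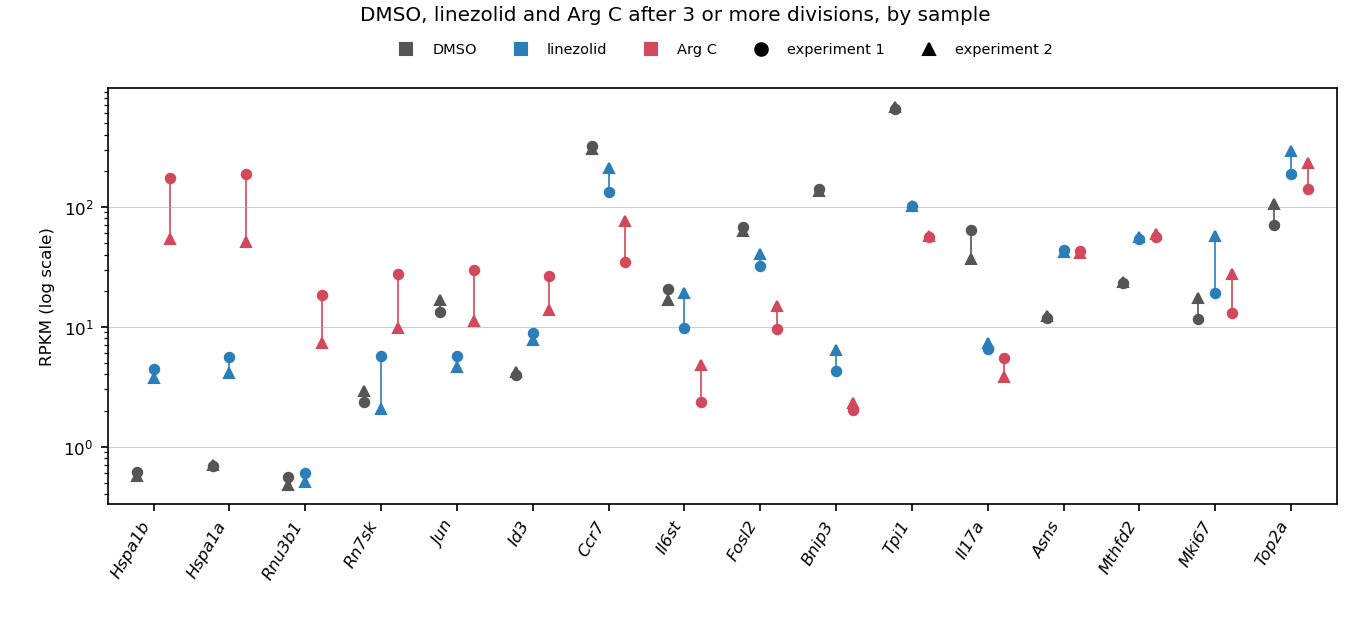
RNA levels (RPKM, log scale) of 16 genes in cells of 3 or more divisions with DMSO (grey), linezolid (blue) and Arg C (red); circles are experiment 1, triangles experiment 2, and a line joins the 2 samples of a group. Hspa1b is at 174 and 54.3 RPKM with Arg C and at 4.44 and 3.70 RPKM with linezolid, and Il6st is at 2.38 and 4.81 RPKM with Arg C and at 9.83 and 19.1 RPKM with linezolid.

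Lower with Arg C than with linezolid were a receptor of interleukin 6 signals, a homing receptor and an AP-1 subunit. Il6st was at 9.83 and 19.1 RPKM with linezolid and at 2.38 and 4.81 RPKM with Arg C, a difference of -1.74 ± 0.31. Ccr7 was at 134 and 213 RPKM against 34.9 and 76.6 RPKM (-1.68 ± 0.29). Fosl2, of an AP-1 subunit, was at 32.4 and 40.2 RPKM against 9.66 and 14.9 RPKM (-1.51 ± 0.20). In these 3 genes both Arg C samples were below both linezolid samples.

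Of the 24 sterol and fatty acid genes Arg C gave a lower level than linezolid in 17 and a higher one in none. That count was 10 with median-ratio scaling, 10 without Arg C experiment 1 and 9 with the experiment term left out. For the mitosis list 20 of 29 were lower and none higher, but 5 with median-ratio scaling, 1 without Arg C experiment 1, 2 without linezolid experiment 2 and 0 with the experiment term left out. In the linezolid samples the median of this list was 20.7 and 42.0 RPKM after 3 or more divisions. Glycolysis genes were lower than with linezolid in 17 of 25 cases and higher in none, against 34.6% lower over all genes. With median-ratio scaling 7 were lower and 4 higher, with a median of -0.02. The count of 17 was smaller without either Arg C sample or either linezolid sample. Il17a was at 6.56 and 7.28 RPKM with linezolid and at 5.45 and 3.81 RPKM with Arg C (-0.51 ± 0.20, adjusted p = 0.0593 in limma), and was called without linezolid experiment 1 (-0.83) or without either DMSO sample.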

How the data were processed

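RPKM values for 45802 genes in 54 libraries were deposited by the authors in 1 table. The submitters' processing notes name CASAVA and GRCm38.p5, while for the aligner, counter, annotation, library kit and strand setting the entry is: not given in the sources used here. Of 19284 genes with any value, 19277 gave whole reads in every library (tolerance 0.0001 reads), from which depth was read: the 12 libraries held 9.6 to 11.25 M (1000000) reads. Technical replicates of a sample differed little more than by counting (chi-square per degree of freedom 1.056 to 1.081). Lanes 3 to 5 carried experiment 1 and lanes 6 to 8 experiment 2, so lane and experiment cannot be told apart.

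The mean of 3 technical replicates was taken as log2(RPKM + 1), a pseudocount of 1, for genes reaching 0.5 RPKM in 2 or more of 18 samples. limma 3.58.1 (R 4.3.3; lmFit, eBayes with trend) was fitted to all 18 samples of 9 groups with experiment as a block, leaving 8 residual degrees of freedom, for 4 contrasts, and p-values were adjusted over all genes tested. The labels name the 2 experiments, which pair the samples. The fit had no term for a culture shared by the 3 division classes of a drug in an experiment. It counted these classes as independent samples, so p-values may be too small. Deviations from group means correlated between groups with r from -0.07 to 0.81 (median 0.32, above 0.1 in 30 of 36 pairs of groups), and with r = 0.2 for Arg C and DMSO and 0.68 for Arg C and linezolid. The scripts were tested on simulated data. Python 3.11.15, pandas 2.3.3, numpy 2.4.6 and matplotlib 3.10.9 were used.

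Alternatives were median-ratio scaling, removal of ribosomal-protein and mitochondrial-genome genes, other filters and pseudocount, limma without trend, limma-voom on recovered reads, no experiment block, only the groups compared, 54 libraries, and leaving out each sample of cycle 4 or each technical replicate. The members and the 34 gene lists were chosen with earlier results of these data known. Genes were named by rule: the 15 largest rises and falls whose mean reached 5 RPKM and whose sign was shared by both experiments, the 5 smallest p-values of each list, a set always named, and the 8 largest each way in the other contrasts. Some list members outside the rule, such as Ldhb, Arnt, Tcf7, Cd5, Dnajb1, Trib3 and Bcl2l1, were chosen after their values were seen. A few genes are not reported here.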

Additional observations from a re-analysis of the deposited data

Results flagged for a closer look

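The Arg C effect differed between division classes in limma's interaction test, 3 or more divisions against 1, for 468 genes in the higher and 403 in the lower direction, and all 29 mitosis genes were among the latter. With the experiment term left out, 0 of these 29 were called. Values below are differences of log2 fold change with standard errors, and no explanation was tested.

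Lower after 3 or more divisions were the cytokinesis and spindle genes Ect2 (-2.26 ± 0.37), Troap (-2.23 ± 0.34), Cdc20 (-2.15 ± 0.35), Kif2c (-2.14 ± 0.31), Cep55 (-2.12 ± 0.36), Pbk (-2.10 ± 0.33) and Kif23 (-2.09 ± 0.32). The mitotic cyclin gene Ccnb2 (-2.09 ± 0.28), Mki67 (-2.08 ± 0.38), Top2a (-1.43 ± 0.29) and Cdca5 (-1.27 ± 0.29) were lower too, as was the replication helicase gene Mcm5 (-0.87 ± 0.22). Outside the cell cycle Klf2 was at -1.66 ± 0.19, Il10 at -0.91 ± 0.20, the serine synthesis gene Psat1 at -0.62 ± 0.13 and Hspe1 at -0.47 ± 0.11.

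Higher after 3 or more divisions were the metallothionein genes Mt2 (2.34 ± 0.38) and Mt1 (2.17 ± 0.34), Srm (1.27 ± 0.15), Atp5g1 (1.22 ± 0.17) and Nme1 (1.16 ± 0.14). Cirh1a stood at 1.16 ± 0.17, Zfp385a at 1.16 ± 0.21 and Timm50, of the inner membrane import channel, at 1.15 ± 0.13. Nr4a1 was at 1.01 ± 0.19, Ccnd3 at 0.65 ± 0.13, Tpi1 at 0.57 ± 0.11, Hspd1 at 0.49 ± 0.09 and Ldhb at 0.48 ± 0.11. For Hspe1 and Hspd1, whose products form 1 chaperonin, the Arg C effect thus shifted in opposite directions between the classes. Both genes rose against DMSO after 3 or more divisions.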

How the results depend on the processing

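Of 228 counts of called genes recomputed under the alternatives, 184 stayed within 1.5 times the reported count and 44 did not. For Arg C against DMSO, median-ratio scaling gave 3797 higher and 3884 lower, and removal of ribosomal-protein and mitochondrial-genome genes 2139 higher. Signs were compared only where the main fit or the alternative called the gene. On this rule Cd5 (0.58), Cd3d (0.45), Gfm1 (0.56), Vhl (0.37) and Dnajb1 (0.013) turned with median-ratio scaling. Cd5 (0.20) and Vhl (0.004) also turned without ribosomal-protein and mitochondrial-genome genes. For 110 genes, 2011 of 2080 recomputed values kept direction and call or were uncalled in both fits, whatever their sign.

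For 3 or more divisions against 1, the fit without the replicate block called 100 genes (84 higher, 16 lower), the groups compared alone 241 (65 and 176) and 54 libraries 4596 (2270 and 2326). Leaving out 1 sample gave 286 to 931 calls, 154 to 478 higher and 132 to 484 lower. For 3 or more against 2, 54 libraries gave 1293 (497 and 796) and no filter 3 (1 and 2). For Arg C against linezolid, the fit without the block called 1983 (88 and 1895), 54 libraries 7332 (905 and 6427) and median-ratio scaling 1710 higher and 1513 lower. Removing the 2 gene classes gave 647 and 2508, the groups compared alone 355 higher, and leaving out 1 sample 1266 to 4636, 58 to 368 higher and 1208 to 4268 lower. The cause was not tested.

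With 2 samples a side, the spread rests on all 9 groups, and a lone sample left in a group is assumed to vary like the others. Depth did not limit abundant genes, whereas genes at a few RPKM have understated folds.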

Other observations

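Several lists not described above moved little or in both directions after 3 or more divisions. Over all genes 63.5% were called lower and 11.7% higher. Of 20 endoplasmic reticulum chaperone genes 5 rose and 5 fell, against 15 and 2 with median-ratio scaling. Of 15 p53 targets 9 fell and 1 rose, and 6 and 5 with that scaling. Of 27 genes of complex II and the citric acid cycle 10 rose and 12 fell, and 17 and 4 with that scaling. Of 14 genes of fatty acid oxidation 1 rose and 9 fell, and 7 and 5 with that scaling. Cpt2, of the carnitine palmitoyltransferase of the inner mitochondrial membrane, fell by 2.01 ± 0.18. Of 36 histone genes 7 rose and 3 fell. The higher count was 3 without Arg C experiment 2, 4 without DMSO experiment 1, 12 with median-ratio scaling and 14 with only the groups compared.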
